A study of Homo sapiens with 33 samples.

Results

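The transcriptional response of parental Nalm6 cells to prednisolone was measured by RNA sequencing in 6 libraries, 3 from untreated cells and 3 from cells given 5 µM prednisolone for 24 h. These 6 of the 33 libraries in the series were taken by their titles, and all genes counted in them entered the analysis. Nalm6 is an established human B-cell precursor acute lymphoblastic leukaemia (ALL) line, and prednisolone is a synthetic glucocorticoid used to treat ALL. The whole series has 11 groups of 3 libraries and asks how glucocorticoid and Wnt signalling counteract each other in steroid resistance. Both groups described here are the unedited parental line, grown in RPMI-1640 with charcoal-stripped serum, and the labels name no vehicle for the untreated cells. A second untreated Nalm6 group that accompanies the dexamethasone libraries was kept out of the main comparison. The labels do not say whether the 3 libraries of a group came from separate cultures, so the p-values below measure only the spread between these libraries. The free text on treatment lists prednisolone for Nalm6, whereas the design text describes it for an edited line only, and the titles were followed.

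Glucocorticoids cross the cell membrane and bind the glucocorticoid receptor NR3C1, which waits in the cytoplasm in a complex with HSP90 chaperones and FKBP immunophilins. The loaded receptor enters the nucleus, where it binds DNA at palindromic response elements or attaches to other transcription factors, and it both raises and lowers transcription. In lymphoid precursors glucocorticoids stop the cell cycle in G1 and can cause death through the BCL2 family, which is the basis of their use in ALL.

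The gene counts summed to between 49011382 and 61930057 in the untreated libraries and to between 29461127 and 58613117 under prednisolone, where replicate 1 is the shallowest. Levels below are counts of a gene per 1000000 gene counts of its library (CPM). All 12 genes of a B-precursor marker panel were at 1 CPM or more in every library, and the panel summed to 5456 to 5568 CPM untreated and 5101 to 5174 CPM under prednisolone. Of a 12-gene T-cell panel, 9 genes, among them CD2, CD3D, CD3E, CD3G, CD5 and CD7, were at 0 counts in all 6 libraries, and the panel summed to 31.0 to 33.0 CPM untreated and 25.4 to 27.1 CPM treated. The myeloid panel summed to 7.75 to 9.59 and 7.64 to 9.32 CPM, with ELANE, S100A8 and S100A9 at 0. The first principal component of the log2 CPM values held 93.2% of the variance and separated the 2 groups.

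Promoter windows are printed first, for genes called higher whose window holds letters of a glucocorticoid response element and for 1 classic target whose window lacks them. The letters of the full palindromic glucocorticoid response element are AGAACA and TGTTCT with 3 bases of any kind between them. They occurred in 1 of the 27305 RefSeq promoter windows and in none of the windows of genes tested. A window (GRCh38.p14) runs from 250 bases before to 50 after a start and was searched on both strands. Only 1 window per gene symbol was kept, so any other start of a gene was not searched. A looser set of core letters, GNACA and TGTNC with the same spacing, was added after the data had been seen. These letters occurred in 0.388% of all windows and in 20 of the 9208 windows of genes tested at an average log2 CPM of at least 1 (0.217%). Among the 344 windows of genes called higher by a log2 fold change of at least 1 they occurred in 6 (1.74%), which are 5 distinct windows because OR7C1 and OR7A5 share one, and among the 102 windows of genes called lower by at least 1 they occurred in 0. The hexamer AGAACA alone, which the full element contains, was found in 13.1% of the windows of the genes called higher, in 6.86% of those called lower, in 8.88% of those of genes tested at an average log2 CPM of at least 1 and in 14.9% of all windows. These matches are a description of letters, with no test, and do not show that the receptor binds there. The windows of 4 genes called higher are shown with the core letters in capitals. The window of TSC22D3, a classic glucocorticoid target, is shown because that window held neither the core letters nor the hexamer. Any other start of TSC22D3 was not searched. CHST7 and MAP3K6 were chosen after their values had been seen.
OR7C1: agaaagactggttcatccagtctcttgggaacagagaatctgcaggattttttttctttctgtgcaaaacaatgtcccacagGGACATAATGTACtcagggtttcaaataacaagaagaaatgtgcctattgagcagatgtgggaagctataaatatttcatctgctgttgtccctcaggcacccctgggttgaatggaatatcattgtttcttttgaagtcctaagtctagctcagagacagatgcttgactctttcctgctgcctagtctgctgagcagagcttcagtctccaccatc
TXNIP: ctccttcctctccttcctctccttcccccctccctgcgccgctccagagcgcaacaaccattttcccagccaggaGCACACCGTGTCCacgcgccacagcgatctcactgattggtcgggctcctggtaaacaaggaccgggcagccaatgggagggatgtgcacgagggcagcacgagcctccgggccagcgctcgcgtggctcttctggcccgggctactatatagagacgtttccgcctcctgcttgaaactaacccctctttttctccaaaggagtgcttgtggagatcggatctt
CHST7: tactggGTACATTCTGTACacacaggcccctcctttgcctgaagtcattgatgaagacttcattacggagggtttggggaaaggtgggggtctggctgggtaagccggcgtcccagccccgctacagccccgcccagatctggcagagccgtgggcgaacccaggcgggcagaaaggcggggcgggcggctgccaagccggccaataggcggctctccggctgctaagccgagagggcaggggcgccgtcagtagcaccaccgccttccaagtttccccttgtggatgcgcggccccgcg
MAP3K6: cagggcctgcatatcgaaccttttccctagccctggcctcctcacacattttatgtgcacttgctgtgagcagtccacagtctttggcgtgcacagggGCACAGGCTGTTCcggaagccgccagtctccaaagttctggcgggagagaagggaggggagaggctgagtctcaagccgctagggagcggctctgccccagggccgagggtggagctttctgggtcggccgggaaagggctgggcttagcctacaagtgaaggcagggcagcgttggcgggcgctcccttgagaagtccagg
TSC22D3: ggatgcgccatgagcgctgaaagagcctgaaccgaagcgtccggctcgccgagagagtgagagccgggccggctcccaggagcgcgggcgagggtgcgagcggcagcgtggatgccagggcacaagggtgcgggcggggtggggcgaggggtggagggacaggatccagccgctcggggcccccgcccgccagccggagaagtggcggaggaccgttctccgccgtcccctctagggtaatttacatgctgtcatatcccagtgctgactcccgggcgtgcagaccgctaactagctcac
The OR7C1 window lies at chr19:14835136-14835435 on the minus strand, with the core letters starting at position -168 from the start. The window of TXNIP, at chr1:145996530-145996829 on the minus strand, has them at position -175. In CHST7, at chrX:46573515-46573814 on the plus strand, they begin at position -244. MAP3K6 carries them at position -152 of its window at chr1:27366912-27367211 on the minus strand, and TSC22D3 lies at chrX:107775939-107776238 on the minus strand. Expression of these genes rose as follows. OR7C1 and OR7A5, olfactory receptor genes that share this start, had 0 counts in all 3 untreated libraries and 288, 662 and 650 counts (OR7C1) and 221, 533 and 495 counts (OR7A5) under prednisolone, at least 182-fold (OR7C1) and 142-fold (OR7A5) higher when set against 3 counts in the shallowest untreated library. Reads of these neighbouring genes with a common start cannot be assigned to separate promoters here. TXNIP, an arrestin-like protein that binds thioredoxin and limits glucose uptake, stood at 75.3, 76.3 and 77 CPM untreated and 592, 656 and 665 CPM under prednisolone. CHST7, a sulfotransferase, went from 13.2 ± 0.151 to 81.9 ± 4.17 CPM, and MAP3K6, a stress-pathway kinase, from 30.4 ± 0.451 to 77 ± 1.56 CPM (mean ± SD, n = 3). The groups did not overlap for any of these genes, as they did not for 60.9% of all genes tested.

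Of 18658 genes tested, 10231 (54.8%) differed between prednisolone and untreated cells at an adjusted p under 0.05 (edgeR quasi-likelihood test, Benjamini-Hochberg), 5352 of them higher (28.7%) and 4879 lower (26.1%). Changes of 1 or more on the log2 scale were seen in 1638 genes (8.78%), of which 1253 were higher (6.72%) and 385 lower (2.06%). Large changes were mostly rises, with 241 genes higher and 17 lower by a log2 fold change of 3 or more. Many of the rises were in scarce or non-coding genes. Of the 1253 genes higher by at least 1, 643 were annotated as protein-coding, and of the 385 lower, 278. At an average log2 CPM of at least 5, 166 genes were higher and 33 lower by at least 1. The median over all genes tested was 0.03. The split between higher and lower calls turned with the processing. It was 4985 higher and 5057 lower with RLE size factors, 4247 and 4615 with DESeq2, and 5772 and 4493 with library totals alone. Against the second untreated Nalm6 group it was 5531 and 5655. Of the protein-coding genes called in the main fit, 3772 were higher and 4341 lower. Abundant genes also leaned towards lower. Among the 6538 genes at an average log2 CPM of at least 5, 30.7% were higher and 43.1% lower. The lower share is repeated below beside groups that hold many abundant genes. In whole-culture RNA, less RNA per cell and fewer cells of a kind cannot be told apart. The untreated and the prednisolone libraries were registered in separate blocks of the deposit and the labels give no run or date, so the treatment and any difference between sequencing runs cannot be told apart. The second untreated Nalm6 group was registered in the same block as the prednisolone libraries. Setting the prednisolone libraries against the second untreated Nalm6 group kept 7431 of the 10231 calls in the same direction (72.6%), turned 370 to the opposite direction, and gave 2599 genes with a log2 change of 1 or more.

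**Figure D1:**
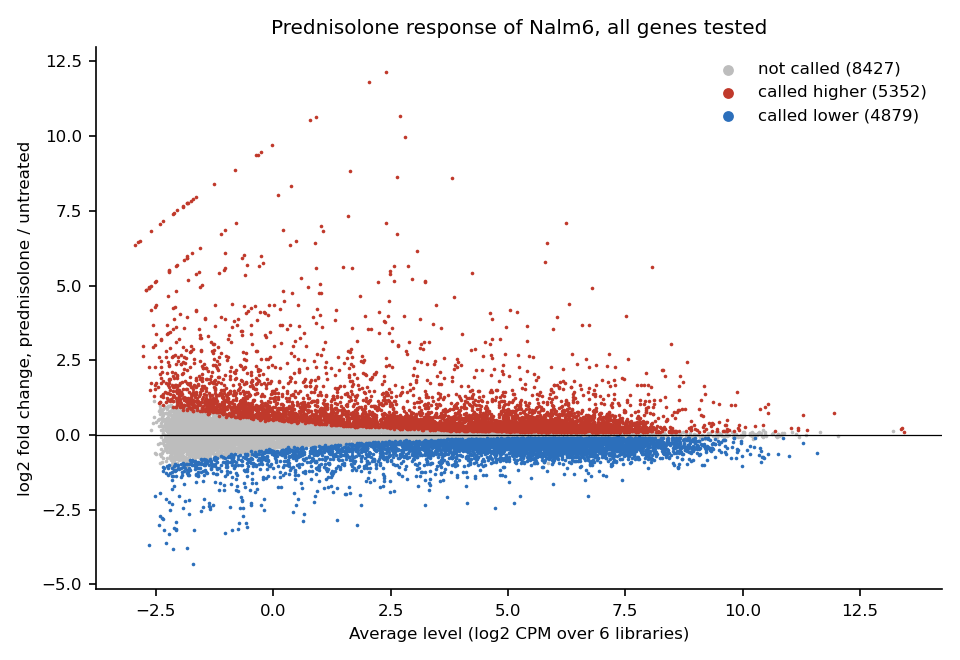
Log2 fold change of prednisolone over untreated Nalm6 cells (vertical axis) against the average log2 CPM over the 6 libraries (horizontal axis) for the 18658 genes tested, with 5352 genes called higher in red, 4879 called lower in blue and the others in grey. The upward tail reaches much further than the downward one, and the straight streaks at the left are genes with 0 or very few counts in untreated cells, whose fitted values depend on the prior count.

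The receptor and its feedback genes were among the risers. NR3C1, the receptor itself, was at 243, 239.7 and 241 CPM in the untreated libraries and at 570.2, 562 and 543 CPM after treatment, which is a log2 fold change of 1.18 ± 0.04 (SE). FKBP5, an immunophilin that lowers the receptor's affinity for hormone, rose from 114, 114 and 111 to 384, 366 and 352 CPM (1.67 ± 0.04). Most of the chaperones that hold the receptor in its binding state moved the other way. Of the 20 receptor and chaperone genes, 4 were higher and 14 lower (20% and 70%). Over all genes tested 28.7% were higher and 26.1% lower, and 30.7% and 43.1% at an average log2 CPM of at least 5. HSP90AB1, the constitutive HSP90, fell from 2068 ± 68.6 to 1346 ± 43.4 CPM (-0.65). Among receptor coregulators 10 of 21 were higher and 7 lower (47.6% and 33.3%), with the co-activator NCOA1 at 0.48 and the co-repressor NRIP1 at -0.66.

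TSC22D3, the leucine zipper protein GILZ that binds NF-kB and AP-1, was at 19.6, 23.4 and 21.9 CPM untreated and 329, 341 and 376 CPM treated. Its log2 fold change was 3.99 ± 0.06 (edgeR adjusted p = 8.15e-18), whereas its family member TSC22D1 rose by 0.37. ZBTB16, the zinc finger repressor PLZF, stood at 0.0484, 0.0612 and 0.104 CPM untreated against 27.3, 31 and 29.2 CPM, close to absent before and well expressed after. P2RY14, a receptor for UDP-sugars, went from 1.15, 1.04 and 1.1 to 147, 152 and 159 CPM, a log2 fold change of 7.09 ± 0.07. TP53INP1, an autophagy and cell-death regulator, went from 11, 10.6 and 10.1 to 544, 529.8 and 527 CPM (5.62 ± 0.05). In each of these 4 genes the lowest treated library exceeded the highest untreated library by more than the whole spread within either group. PER1, a clock repressor that is a direct receptor target, rose by 1.36 ± 0.04, while DBP, a clock output factor, fell by 1.25 on the log2 scale, from 11.9 ± 0.278 to 5.08 ± 0.414 CPM. Of the 20 clock and related genes tested, 8 were higher and 7 lower, near the shares over all genes. DUSP1, a MAPK phosphatase induced by glucocorticoids in many cell types, was lower here, at 128, 134 and 135 CPM untreated and 114, 110.4 and 117 CPM treated (-0.25 ± 0.04).

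**Figure D2:**
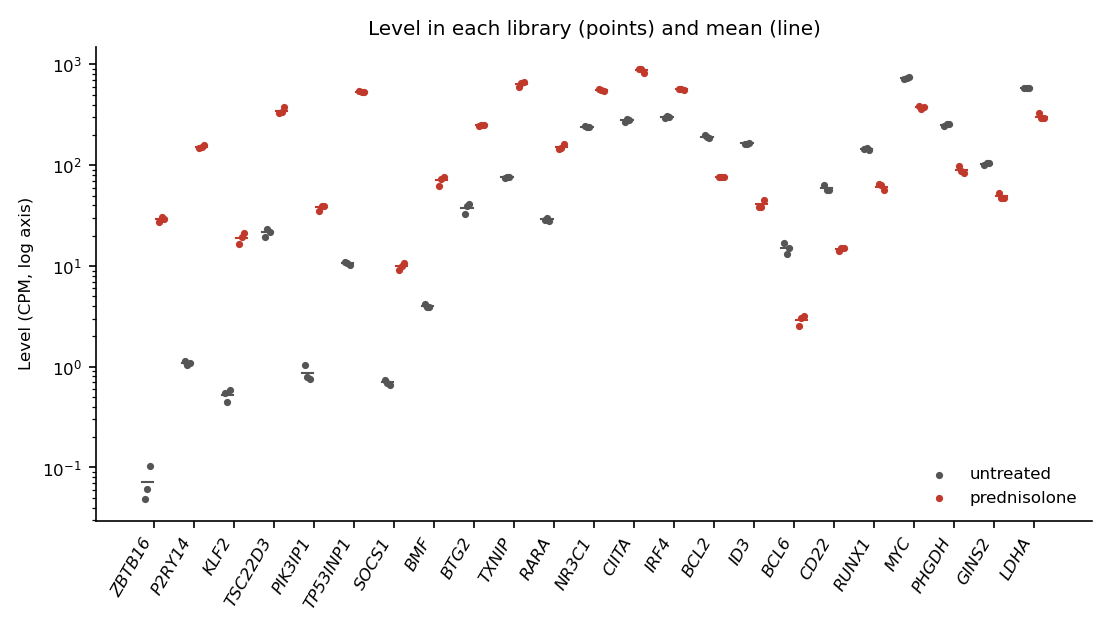
Level in CPM on a log axis of 23 genes described in the text, in each of the 3 untreated (grey) and 3 prednisolone (red) libraries, with the mean as a line. The groups do not overlap for any gene shown, as for 60.9% of all genes tested, and genes named for large changes were picked on that condition. ZBTB16 lies near 0.1 CPM untreated and near 30 CPM treated, and MYC, PHGDH, GINS2 and LDHA are abundant genes that fell.

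A set of genes appeared from next to nothing. Of the genes called higher, 73 had 3 or fewer counts in each untreated library, and 21 of these reached at least 1 CPM under prednisolone. Besides the olfactory receptor genes, the untreated libraries held 0 counts of GHRHR, the receptor for growth hormone-releasing hormone, which reached 80, 232 and 257 counts, at least 62.6-fold higher. CD244, a receptor of natural killer cells, also at 0 counts untreated, had 99, 166 and 250 counts, at least 58.7-fold higher. KDR, the VEGF receptor VEGFR2, had 5 counts over the untreated libraries and 317, 682 and 887 counts under prednisolone, a ratio of 451 with a 95% exact counting interval from 193 to 1391. LOXL4, a lysyl oxidase that crosslinks collagen, had 2 counts untreated and 414, 792 and 884 treated, and its interval runs from 346 to 10327. HEYL, a repressor that acts downstream of Notch, had 6 counts untreated against 156, 357 and 388, a ratio of 180 (82.2 to 491). These intervals cover counting error only. GHRHR was chosen after its counts had been seen. A 12-gene panel of natural killer and erythroid markers, which has NCAM1 at 0 counts throughout, summed to 2.56 to 3.77 CPM untreated and 3.63 to 4.04 CPM treated, and its part in the CD244 counts was not tested. No gene of the stromal and epithelial panel was at 1 CPM or more in every library of either group.

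Transcription factor families responded member by member, where 28.7% of all genes tested were higher and 26.1% lower. In the KLF and SP family, zinc finger factors that bind GC-rich promoters, 8 of 16 tested members were higher and 5 lower, and 5 rose by a log2 fold change of at least 1. KLF2, a quiescence factor of lymphocytes, went from 0.549, 0.449 and 0.592 to 16.5, 19.2 and 21.3 CPM (5.13 ± 0.13). KLF13 rose from 62.8 ± 2.34 to 220.4 ± 10.6 CPM, and KLF6 by 1.68 on the log2 scale. KLF9, a known receptor target, rose from 3.62 ± 0.197 to 9.77 ± 0.658 CPM. All 4 were below their treated range in each untreated library, and the groups did not overlap for 60.9% of all genes tested. Genes named for the largest changes of a list were picked among such genes. RARA, the retinoic acid receptor alpha, was the largest riser of the named nuclear receptors, from 28.7, 30.1 and 28.1 to 143, 149 and 162 CPM (2.36 ± 0.05). Of 24 nuclear receptors tested, 10 were higher and 7 lower. The BTB zinc finger factors gave 17 higher and 9 lower of 39, with ZBTB16 at one end and BCL6, the germinal centre repressor, at the other. BCL6 was at 16.8, 13.1 and 14.9 CPM untreated and 2.55, 3.02 and 3.21 CPM treated (-2.36 ± 0.11). All 6 genes tested of the CEBP list (CEBPA, CEBPB, CEBPE, CEBPG, DDIT3 and CEBPZ) were lower, with a median log2 fold change of -0.52. CEBPZ, counted here by its name, was at -0.26, and CEBPB fell from 13.8 ± 1.89 to 8.38 ± 0.522 CPM.

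AP-1 genes, immediate-early factors, split. Of 28 AP-1 and ATF genes, 12 were higher and 10 lower (42.9% and 35.7%, against 28.7% and 26.1% over all genes tested). FOS rose from 1.18 ± 0.12 to 6.73 ± 0.569 CPM and FOSB by 1.62, both still low, and JUN rose by 1.27, whereas BATF3, a lymphoid partner of JUN, fell from 3.39 ± 0.348 to 1.07 ± 0.2 CPM. Among ETS factors 11 of 21 were lower and 7 higher, with ETS2 at 0.62 and ELK3 at -0.90. RUNX1, a core haematopoietic factor, stood at 145, 149 and 143 CPM untreated and 64.4, 63.2 and 56.4 CPM treated, a log2 fold change of -1.28 ± 0.04. GFI1, a repressor of lymphoid and myeloid genes, rose from 43.7, 46.4 and 47.3 to 125, 128 and 127 CPM (1.44 ± 0.04), and GATA3 by 1.25. The ID proteins, which block E-protein DNA binding, did not move as one. ID3 fell from 161, 164 and 168 to 38.7, 38.8 and 45.1 CPM (-2.03 ± 0.06), while ID2 rose from 6.1, 5.37 and 5.89 to 22.2, 21.6 and 24.7 CPM (1.95 ± 0.08). Numbered ZNF genes, many of them repressors with KRAB domains, showed 142 higher and 81 lower of 412 tested and a median of 0.06, close to all genes. ZNF831 was the largest named riser of them, from 6.25 ± 0.571 to 39.6 ± 1.2 CPM.

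Signalling pathways held both rising and falling inhibitors. Of 23 NF-kB factors and inhibitors, 15 were higher and 5 lower (65.2% and 21.7%, against 28.7% and 26.1% over all genes tested). NFKBIA, the inhibitor that holds NF-kB in the cytoplasm, rose from 53.5, 56.8 and 56.7 to 157, 151 and 158 CPM (1.45 ± 0.04), and NFKBIZ, a nuclear member of the inhibitor family, from 8.64 ± 0.732 to 27.7 ± 0.626 CPM. RELA, the main activating subunit, was at 69.9 CPM untreated and 71 CPM treated and was not called (adjusted p = 0.941, edgeR). TNFAIP3, a deubiquitinase that ends NF-kB signalling, fell by 0.42 on the log2 scale. In the cytokine receptor and SOCS group 16 of 28 were higher and 8 lower (57.1% and 28.6%), the lower share near that of all genes. SOCS1, an inhibitor of JAK kinases, went from 0.743, 0.694 and 0.662 to 9.03, 10.1 and 10.7 CPM (3.80 ± 0.12), and SOCS2 from 127, 129.7 and 133 to 511, 527 and 535 CPM (1.99 ± 0.04). IL7R, the interleukin 7 receptor, fell from 335, 324 and 334 to 202, 187 and 185 CPM (-0.82 ± 0.04).

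Along the PI3K, AKT and mTOR axis 16 of 38 genes were higher and 9 lower. PIK3IP1, a membrane inhibitor of PI3K, was at 1.05, 0.796 and 0.749 CPM untreated and 35.5, 39.7 and 39.6 CPM treated (5.43 ± 0.09). DDIT4, an mTORC1 inhibitor also known as REDD1, rose by 1.16, and SGK1, the serum and glucocorticoid kinase, from 2.24 ± 0.0291 to 16.9 ± 1.08 CPM. PIK3CD, the leukocyte catalytic subunit of PI3K, fell from 312 ± 11.5 to 202 ± 2.84 CPM (-0.65). Among MAPK phosphatases and Sprouty inhibitors, 6 of 17 were higher and 7 lower. DUSP6, which inactivates ERK, rose from 107, 108 and 112 to 266, 278 and 296 CPM (1.33 ± 0.04), and DUSP10, which acts on p38 and JNK, from 3.17 ± 0.241 to 13.1 ± 0.202 CPM. MAP2K6, a kinase upstream of p38, fell from 25, 25.7 and 25.2 to 9.47, 7.95 and 6.88 CPM (-1.70 ± 0.08). RASA3, a RAS GTPase-activating protein, rose by 1.35. RCAN1, an inhibitor of calcineurin, rose from 54.5, 57.2 and 54.2 to 323, 329.8 and 331 CPM (2.54 ± 0.04). In the SMAD and TGF-beta group 11 of 22 were higher and 4 lower, with SMAD1, a BMP effector, at 1.16, its inhibitor SMAD7 at 1.13 and the co-receptor TGFBR3 at 1.82. In the Wnt branch, LEF1, a nuclear Wnt effector, fell from 509, 534 and 529.8 to 259.7, 263 and 248 CPM (-1.06 ± 0.04), and TLE1, a co-repressor that binds it, rose from 30.2, 34 and 31.8 to 110.0, 113 and 116 CPM (1.79 ± 0.05). The whole group of TLE co-repressors and TCF/LEF factors gave 4 higher and 4 lower of 11 (36.4% each). Its number of higher members was 2 with RLE size factors, with DESeq2 and against the second untreated group. Of 22 other Wnt components 6 were higher and 4 lower (27.3% and 18.2%, against 28.7% and 26.1% over all genes tested).

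**Figure D3:**
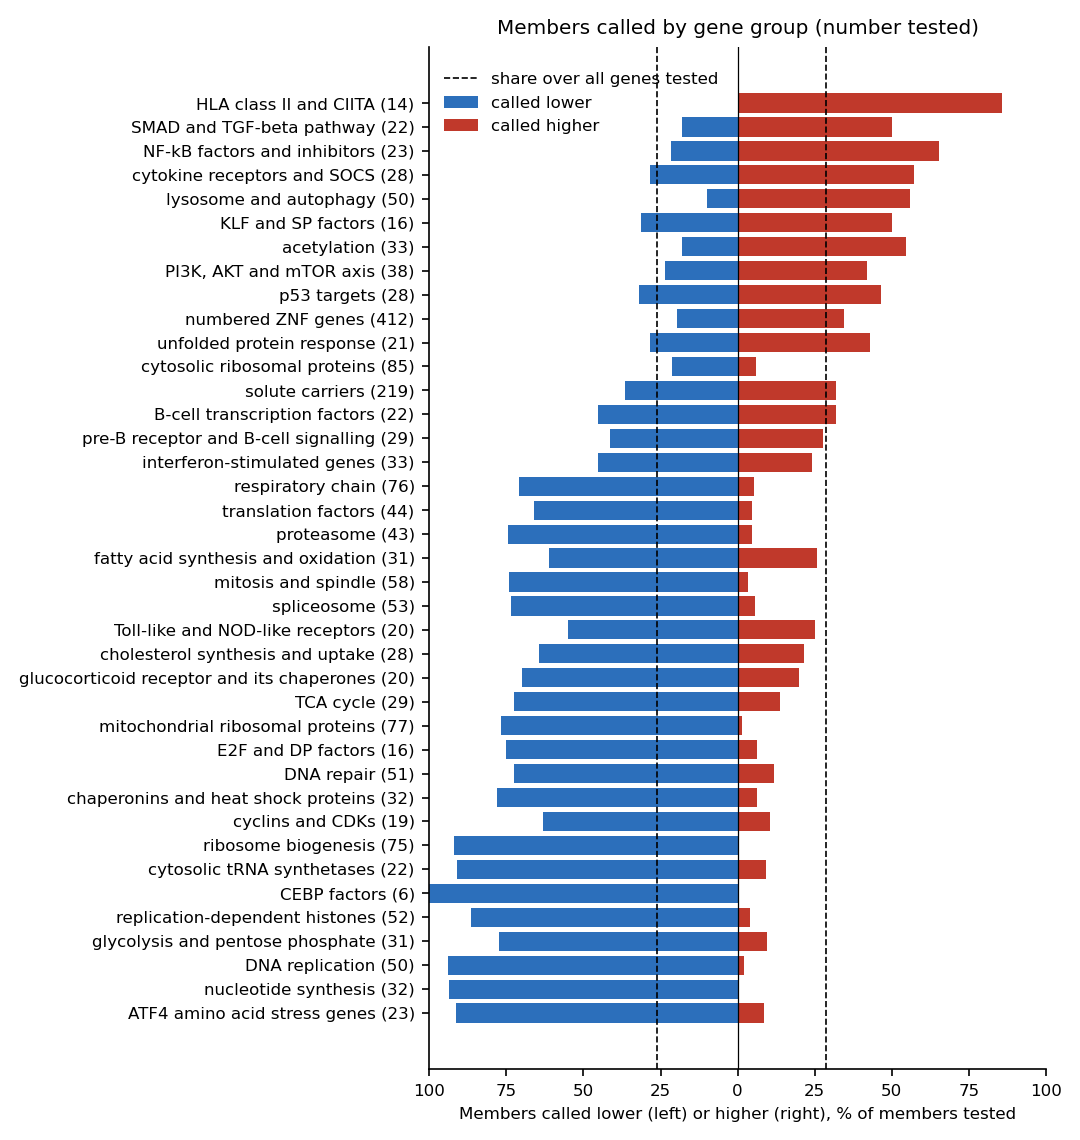
Share of the tested members of 39 gene groups called lower (blue, left) or higher (red, right) under prednisolone, in percent, with the number tested in parentheses and groups ordered by their median log2 fold change. Dashed lines mark the shares over all genes tested (26.1% lower and 28.7% higher); DNA replication, nucleotide synthesis, ribosome biogenesis and CEBP bars lie almost wholly on the left and the HLA class II bar wholly on the right.

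The BCL2 family changed on both sides. BMF, a BH3-only protein that neutralizes BCL2, rose from 4.2, 3.94 and 3.94 to 62.7, 73.2 and 76.9 CPM (4.11 ± 0.08, edgeR adjusted p = 9.86e-17). BCL2L11, the BH3-only protein BIM known for its part in glucocorticoid-induced death of lymphoid cells, rose from 28.5, 27.6 and 26.7 to 78.2, 78.6 and 72 CPM (1.44 ± 0.04). BCL2 itself fell from 199, 193 and 186 to 75.5, 76.4 and 75.9 CPM (-1.37 ± 0.04). These 3 changes were larger than the spread in either group. Against them, the BH3-only gene HRK fell from 18.8 ± 1.07 to 8.12 ± 0.318 CPM (-1.24), BID fell by 0.49 on the log2 scale, and BCL2L1, the anti-apoptotic BCL-XL gene, rose from 50.9 ± 1.94 to 75.3 ± 3.41 CPM (0.54). PMAIP1, the BH3-only gene NOXA, was at 84.7 CPM untreated and 85.9 CPM treated and was not called (adjusted p = 0.903, edgeR). Over the group, 3 of 13 pro-apoptotic members were higher and 6 lower, and with the second untreated group as control 10 were lower. Anti-apoptotic members gave 3 higher and 1 lower of 4, and 1 higher against that second group. GSDME, a pore-forming gasdermin cut by caspase 3, went from 0.686 ± 0.0835 to 8.24 ± 0.392 CPM, and BIRC3, an inhibitor of apoptosis induced by NF-kB, from 0.51 ± 0.0672 to 3.87 ± 0.086 CPM. Death receptors and caspases as a group split, with 13 higher and 15 lower of 32 (40.6% and 46.9%, against 28.7% and 26.1% over all genes tested).

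Regulators that restrain proliferation moved in both directions. Of the 5 BTG and TOB genes 4 were higher and 1 was lower, whereas CDK inhibitors and pocket proteins gave 4 higher and 7 lower of 11 (median -0.17). BTG1 rose by 2.06 ± 0.05 and BTG2 from 32.9, 39.3 and 41.2 to 246, 249.7 and 253 CPM (2.70 ± 0.06), both anti-proliferation proteins that recruit deadenylases. CDKN1B, the CDK inhibitor p27, rose from 56.3 ± 1.15 to 78.4 ± 1.66 CPM (0.45), but CDKN1A, the inhibitor p21, fell from 114, 109 and 112 to 61, 61.4 and 65.3 CPM (-0.86 ± 0.04). MYC, a transcription factor that drives growth, fell from 722, 741 and 752 to 383, 364 and 378 CPM (edgeR adjusted p = 7.75e-13), and MXD4, which competes for its partner MAX, rose from 31.4 ± 1.17 to 109 ± 3.82 CPM. Of 19 cyclins, CDKs and their kinases and phosphatases 12 were lower and 2 higher (63.2% and 10.5%). Over all genes tested 26.1% were lower and 28.7% higher, and 43.1% and 30.7% at an average log2 CPM of at least 5. CDK6, the G1 kinase, fell from 1724 ± 65.1 to 1046 ± 67.1 CPM, CDK4 by 0.80 and CCND3, its lymphoid cyclin, by 0.81 on the log2 scale. CCNB1, the mitotic cyclin, was at 106 CPM untreated and 114 CPM treated and was not called. SKP2, which targets p27 for destruction, fell from 180.4 ± 5.29 to 99.5 ± 6.25 CPM.

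Replication genes fell almost together. Of 50 DNA replication genes 47 were lower (94%) and 1 was higher, with a median log2 fold change of -0.60 against 0.03 over all genes. The share lower was 26.1% over all genes tested and 43.1% over those at an average log2 CPM of at least 5. GINS2, a subunit of the replicative helicase, fell from 101, 104 and 104 to 52.6, 47.3 and 47.4 CPM (-1.10 ± 0.04), and MCM4, another subunit, from 532, 528 and 534 to 285, 245 and 243 CPM (-1.07 ± 0.05). PCNA, the sliding clamp, fell from 478 ± 8.68 to 254 ± 18.6 CPM. Nucleotide synthesis gave 30 of 32 lower and 0 higher, with the purine enzyme PAICS at -1.02 and the ribonucleotide reductase subunit RRM2 at -0.91. Replication-dependent histones, made only in S phase, gave 45 of 52 lower and 2 higher (median -0.55). Histone mRNAs mostly lack a poly(A) tail, and the labels do not say how RNA was selected. E2F and DP factors gave 12 of 16 lower, and DNA repair genes 37 of 51, with UNG, which removes uracil from DNA, at -1.21.

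Mitotic genes moved less. Of 58 mitosis and spindle genes 43 were lower and 2 higher (74.1% and 3.4%), but the median was -0.24. Lower genes made up 26.1% of all genes tested and 43.1% of those at an average log2 CPM of at least 5. The proliferation markers TOP2A (655 CPM untreated, 658 treated) and MKI67 (267 and 278) and the mitotic kinase PLK1 (50.4 and 48.4) were not called. Their edgeR adjusted p values were 0.648, 0.769 and 0.163. CENPM, a centromere protein, was the named member that fell most, from 53.8 ± 2.64 to 31.4 ± 1.56 CPM.

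**Figure D4:**
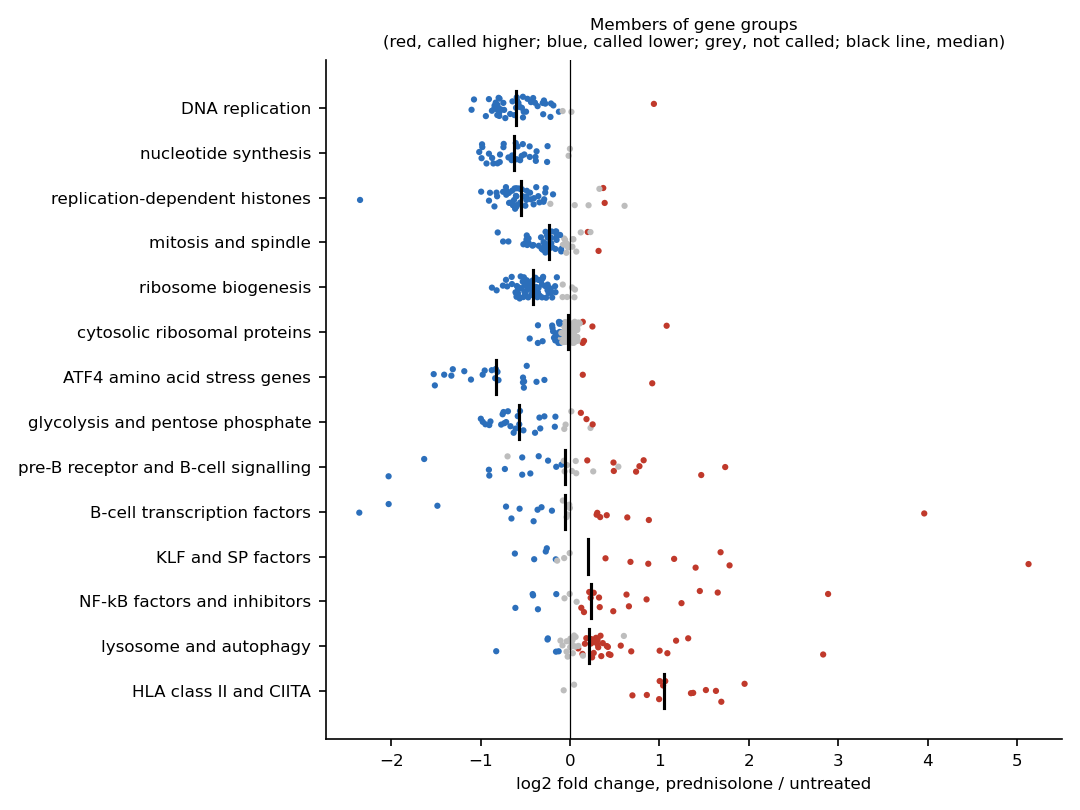
Log2 fold change under prednisolone of each tested member of 14 gene groups, coloured by call, with the group median as a black line. Replication, nucleotide and histone genes lie mostly left of 0, whereas B-cell signalling and B-cell factor genes spread to both sides around medians of -0.06 and HLA class II members lie mostly at or beyond 1.

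Genes of protein production fell, apart from the ribosomal proteins themselves. Of 75 ribosome biogenesis genes, 69 were lower and 0 higher, with a median of -0.42. NPM1 and NCL, abundant nucleolar proteins, fell from 1789.8 ± 21.4 to 1163 ± 12.8 CPM and from 1384 ± 7.58 to 897 ± 20.4 CPM, and BYSL, a small-subunit assembly factor, by 0.87 on the log2 scale. Cytosolic ribosomal protein genes had a median of -0.02, with 18 of 85 lower and 5 higher. That count of lower members was 10 without prednisolone replicate 2, 29 without prednisolone replicate 3 and 64 against the second untreated group. Mitochondrial ribosomal proteins gave 59 of 77 lower, cytosolic tRNA synthetases 20 of 22, and translation factors 29 of 44. IARS1, the isoleucine synthetase, fell from 839 ± 5.38 to 511 ± 12.8 CPM. Protein-folding and degradation genes followed the same direction, with 25 of 32 chaperonins and heat shock proteins, 32 of 43 proteasome genes and 39 of 53 spliceosome genes lower. Their medians were -0.33, -0.22 and -0.24. For comparison with all groups of this paragraph, 43.1% of genes at an average log2 CPM of at least 5 were lower and 30.7% higher.

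The amino acid stress program driven by the transcription factor ATF4 had the lowest median of the groups plotted. Of 23 such genes 21 were lower and 2 higher, with a median of -0.83 and 7 members lower by at least 1. Over all genes tested 26.1% were lower and 28.7% higher, and 43.1% and 30.7% at an average log2 CPM of at least 5. PHGDH, the first enzyme of serine synthesis, fell from 246, 255 and 259 to 97.8, 88.3 and 83.8 CPM (-1.53 ± 0.05). SLC7A5, the leucine transporter, fell from 514, 542 and 549 to 256, 245 and 258 CPM (-1.11 ± 0.04). STC2, a stress-induced glycoprotein, fell by 1.51 and TRIB3, a pseudokinase that restrains ATF4, by 1.31 on the log2 scale. ATF4 itself fell from 575 ± 7.21 to 411 ± 9.2 CPM (-0.51). ASS1, which makes arginine from citrulline, was among the 12 largest falls of genes at an average log2 CPM of at least 1 whose groups did not overlap, from 53.1, 56.9 and 59.1 to 13.3, 11.3 and 11 CPM (-2.30 ± 0.06). The unfolded protein response, a related stress arm, did not share that fall. Of its 21 genes 9 were higher and 6 lower (42.9% and 28.6%), with a median of 0.04 and a lower share near that of all genes.

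Glycolysis fell at most steps. Of 31 glycolysis and pentose phosphate genes 24 were lower and 3 higher (median -0.57). LDHA, lactate dehydrogenase A, fell from 590.3, 578 and 589 to 327, 293 and 292 CPM (-0.98 ± 0.04), and ALDOC, an aldolase, from 52.6 ± 1.03 to 27.9 ± 1.72 CPM. HK1, the hexokinase at the entry step, was at 67.3 CPM untreated and 65.6 CPM treated and was not called. The TCA cycle gave 21 of 29 lower and the respiratory chain 54 of 76, with smaller medians of -0.27 and -0.18. For comparison, 43.1% of genes at an average log2 CPM of at least 5 were lower. In lipid metabolism, 18 of 28 cholesterol genes and 19 of 31 fatty acid genes were lower. SCD, the stearoyl-CoA desaturase, fell from 341 ± 6.17 to 162 ± 1.57 CPM (-1.10), and SREBF1, the lipogenic transcription factor, by 0.91 on the log2 scale. LSS, which closes the sterol rings, was among the 6 cholesterol genes that rose, from 189, 189 and 190.0 to 460.1, 472 and 463 CPM (1.27 ± 0.03). LPIN1, a phosphatidate phosphatase known as a glucocorticoid target, rose from 49.8 ± 1.74 to 106 ± 1.47 CPM.

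Antigen presentation by HLA class II rose. Of 14 class II genes and partners 12 were higher and 0 lower, 9 of them by at least 1, with a median of 1.05. CIITA, the master activator of class II genes, rose from 269, 285 and 282 to 911, 905 and 826 CPM (1.63 ± 0.04). HLA-DRA rose from 605, 595 and 595 to 1203, 1194 and 1270.2 CPM (1.00 ± 0.04), and HLA-DMB, a chain of the peptide exchanger, from 19.6 ± 0.417 to 64.2 ± 5.45 CPM. Sequence-similar HLA genes share reads, so single class II values are uncertain. Class I genes moved less, with 8 of 17 higher and 5 lower (47.1% and 29.4%), and 5 higher against the second untreated group. Over all genes tested 28.7% were higher and 26.1% lower. B2M, the class I light chain, was at 611 CPM untreated and 645 CPM treated and was not called.

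Toll-like and NOD-like receptors gave 11 of 20 lower, 6 of them by at least 1, and 5 higher. TLR3, a sensor of double-stranded RNA, fell from 4.49, 4.22 and 4.82 to 1.83, 2.26 and 2.51 CPM (-1.03 ± 0.12), and IL1B, an inflammatory cytokine, from 4.75, 4.53 and 4.51 to 1.29, 1.18 and 1.23 CPM (-1.94 ± 0.12). Cytokine and chemokine genes as a group gave 6 higher and 5 lower of 15 (40% and 33.3%, against 28.7% and 26.1% over all genes tested). Of 33 interferon-stimulated genes 15 were lower and 8 higher. IFI44 fell from 4.44 ± 0.305 to 1.33 ± 0.188 CPM and IFIT1 by 1.29 on the log2 scale, whereas ISG20, an exonuclease also induced by glucocorticoids, rose from 6.3, 6.63 and 6.15 to 76.2, 81.9 and 83.3 CPM (3.64 ± 0.06).

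B-lineage genes moved in both directions. Pre-B receptor and B-cell signalling genes gave 8 higher and 12 lower of 29 (27.6% and 41.4%, against 28.7% and 26.1% over all genes tested). Their share of higher members was near that of all genes. CD22, an inhibitory co-receptor and a drug target in ALL, fell from 63.7, 57.1 and 57.3 to 14.2, 14.9 and 15.2 CPM (-2.03 ± 0.06). LAT2, an adaptor of the B-cell receptor, fell from 92.2 ± 3.66 to 30.4 ± 1.14 CPM, and VPREB1, a surrogate light chain, from 203 ± 3.94 to 110.1 ± 5.11 CPM. CD72, another inhibitory co-receptor, rose from 33.6, 33.3 and 35.6 to 115, 117 and 116 CPM (1.74 ± 0.04). CD38, a surface ectoenzyme, fell by 1.45 on the log2 scale. Among B-cell transcription factors 7 of 22 were higher and 10 lower (31.8% and 45.5%), again with a higher share near that of all genes. PRDM1, the plasma cell repressor BLIMP1, rose from 0.614, 0.755 and 0.662 to 9.16, 12.3 and 10.4 CPM (3.96 ± 0.14), and IRF4, which acts before it in plasma cell differentiation, from 296, 311 and 299.7 to 572, 568 and 563 CPM (0.88 ± 0.04). PAX5, the B-cell identity factor, fell from 704, 709 and 709.9 to 489.6, 485 and 489 CPM (-0.56 ± 0.04). EBF1, its partner, was at 359 CPM untreated and 364 CPM treated and was not called.

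Of 50 lysosome and autophagy genes, 28 were higher and 5 lower (56% and 10%), with a median of 0.21. Over all genes tested 28.7% were higher and 26.1% lower. Against the second untreated group 18 lysosome and autophagy genes were higher. CTSB, the protease cathepsin B, rose from 63.7, 65.8 and 63.1 to 148, 146 and 152 CPM (1.19 ± 0.04), and MAP1LC3B, which coats autophagosomes, from 38.4 ± 1.76 to 83.2 ± 2.02 CPM. Of 33 acetylation genes 18 were higher and 6 lower (54.5% and 18.2%), with the deacetylase HDAC7 at 0.68. DNA and histone methylation genes gave 20 higher and 17 lower of 49 (40.8% and 34.7%). DNMT3B, a de novo DNA methyltransferase, rose from 25.1, 24.1 and 27.2 to 114, 125 and 124 CPM (2.22 ± 0.05).

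Prednisolone at 5 µM and dexamethasone at 100 nM, both for 24 h, are set side by side here, but the agents, the doses and the library sets with their own untreated groups all differ, and these cannot be told apart. A test of the difference between the 2 responses called 1945 of 18715 genes (10.4%), 1090 with the prednisolone response higher (5.82%) and 855 with it lower (4.57%), and 176 (0.94%) by a log2 difference of 1 or more. That split turned to 469 higher and 1414 lower without a filter on low counts, to 847 and 907 with RLE size factors and to 893 and 904 with DESeq2, whereas it was 1374 and 643 with counts taken without strand. Leaving out any 1 library of the dexamethasone set also turned the split, to between 30.7% and 37.7% higher in place of 56.0%. For TSC22D3 the log2 fold changes were 3.99 with prednisolone and 5.23 with dexamethasone (difference -1.24 ± 0.09, SE, edgeR adjusted p = 9.78e-09). P2RY14 gave 7.09 and 8.57 (difference -1.48 ± 0.29, adjusted p = 0.00172). HLA class II genes had a median of 1.05 with prednisolone and 1.48 with dexamethasone, and 13 of 14 passed the difference test. DNA replication medians were -0.60 and -0.82, with 25 of 50 members called different. For nucleotide synthesis, 7 of 32 were called different.

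CEM, a T-cell ALL line treated with 10 µM prednisolone for 24 h, gives the same agent in another lineage at another dose. Of 20491 genes, 5514 (26.9%) had a response that differed between the lines, 2493 higher in Nalm6 (12.2%) and 3021 lower (14.7%), and 992 (4.84%) by a log2 difference of 1 or more. In the S-phase groups, 43 of 50 replication genes and 44 of 57 histone genes passed the difference test. Their medians were -0.60 and -0.55 in Nalm6 and -0.21 and -0.10 in CEM. Glycolysis gave 27 of 33 called different, with medians of -0.57 and -0.17. Ribosome biogenesis, by contrast, gave 21 of 75, near the share over all genes. BCL2L11 rose in both lines, by 1.44 in Nalm6 and 2.19 in CEM, and the Nalm6 response was lower by a log2 difference of -0.77 ± 0.07 (SE, edgeR adjusted p = 1.61e-08). LEF1 had a log2 fold change of -1.06 in Nalm6 and of 0.64 in CEM (difference -1.71 ± 0.05, adjusted p = 3.21e-18). TLE1 was at 1.79 in Nalm6 and 0.07 in CEM (difference 1.71 ± 0.06, adjusted p = 2.57e-16). ISG20 rose by 3.64 and 3.46, a difference that did not pass the test (0.17 ± 0.10, adjusted p = 0.221).

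**Figure D5:**
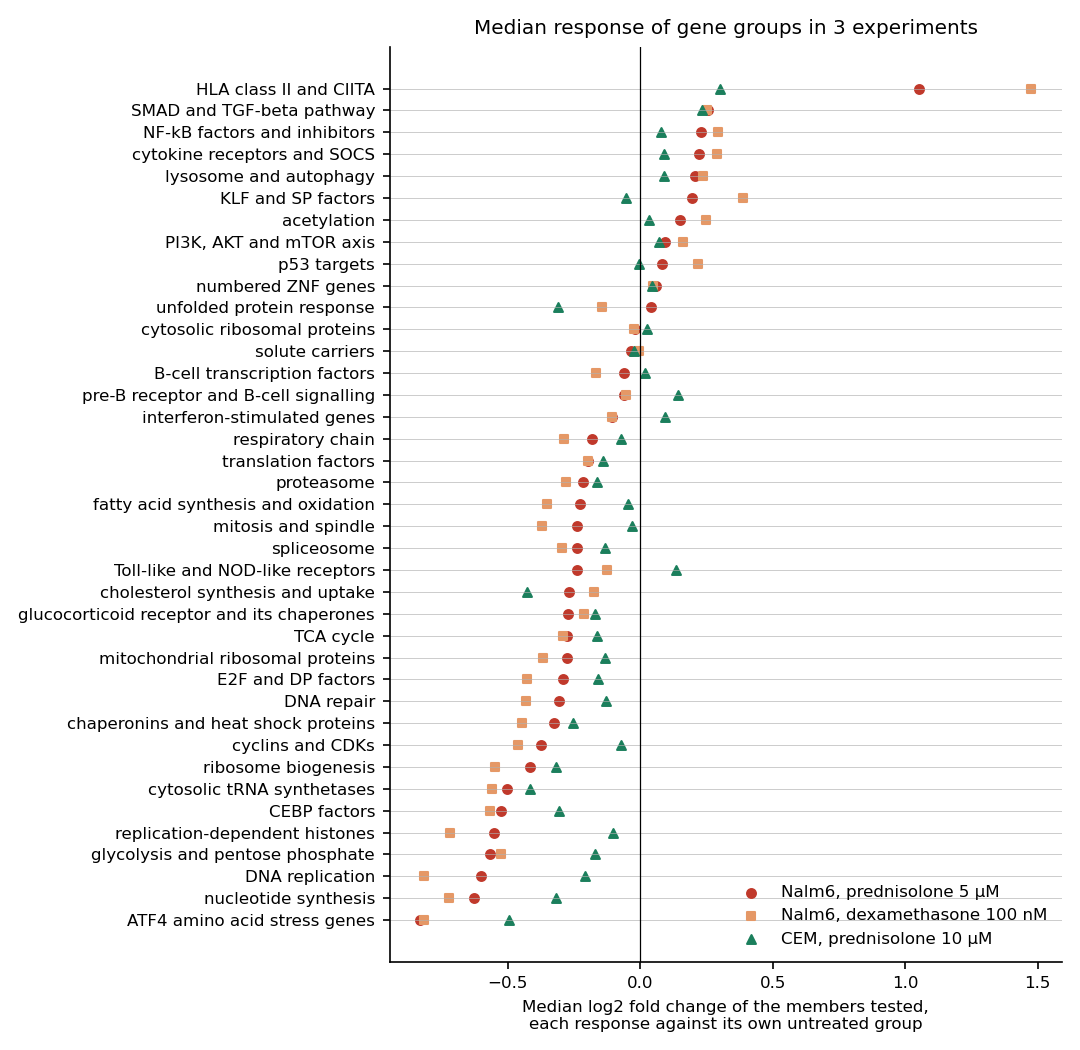
Median log2 fold change of the tested members of 39 gene groups, each against its own untreated cells, in Nalm6 with 5 µM prednisolone (red circles), Nalm6 with 100 nM dexamethasone (orange squares) and CEM with 10 µM prednisolone (green triangles). The members tested can differ between responses, and the HLA class II median rests on 14 genes in each Nalm6 response and on 4 in CEM. Replication and nucleotide genes lie lower in both Nalm6 responses than in CEM, and HLA class II genes lie furthest right with dexamethasone; doses, agents and library sets differ between the series plotted.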

How the data were processed

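RNA was purified on RNeasy columns and sequenced from Illumina libraries, per the labels' protocols. Each deposited file lists whole-number counts for every gene under 3 strand settings, in the layout of STAR, without normalization by the authors as far as the values show. The submitters' processing notes name Bowtie2, DESeq2 and the build hg19, with no role; aligner version and annotation are not given in the sources used here. The stranded column with most reads (column 4) was used, and 4 rows of totals were left out. Symbols matched 40678 gene IDs through a supplied name table. Totals ran from 29461127 to 61930057 counts per library. No 2 libraries agreed within sampling noise by a chi-square test, so none were merged.

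edgeR 4.0.16 (R 4.3.3) was run with filterByExpr, TMM and the quasi-likelihood F test, called at a Benjamini-Hochberg adjusted p under 0.05. Main fits used only the groups compared, and differences between responses were contrasts of 4 groups. Standard errors come from the F statistic. The fits were tested on simulated data. Members and 85 gene lists were chosen with earlier results of these data known. Genes named are members marked in the lists, up to 3 called members per list with the largest change, the 12 largest rises and falls, and the 5 largest differences each way (adjusted p under 0.05, average log2 CPM of at least 1, no overlap). Alternatives were RLE factors, library totals, DESeq2 1.42.0, no filter, at least 10 counts per library, unstranded counts, robust moderation, a replicate block, leaving out each library, the second untreated group as control, and all parental Nalm6 libraries fitted together.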

Additional observations from a re-analysis of the deposited data

Results flagged for a closer look

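The difference between the prednisolone and dexamethasone responses of Nalm6 called 1945 genes by the test of the difference itself. The largest positive differences (log2, prednisolone response minus dexamethasone response) were those of PRKG1 at 1.92, GZMA at 1.69, F3 at 1.49, ARHGAP24 at 1.40 and PHLDA1 at 1.40. On the other side stood STAB1 at -4.34, LDB3 at -2.66, TAMALIN at -2.60, GSTM1 at -2.50 and TACC2 at -2.35. STAB1, a scavenger receptor, was at 0.247 CPM untreated and 11.5 CPM under prednisolone. GSTM1, a glutathione transferase, was not called under prednisolone (13.3 and 13.8 CPM) and had a log2 fold change of 2.53 under dexamethasone. GZMA, a granule protease, changed direction when the prednisolone libraries were set against the second untreated group, from 1.13 to -1.95.

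The difference between the prednisolone responses of Nalm6 and CEM called 5514 genes. Positive differences (log2, Nalm6 minus CEM) were led by GOLGA6GP at 13.42, LOXL4 at 10.16, CD244 at 10.04, TDRD9 at 7.97 and MLC1 at 7.53. Negative ones were PHACTR3 at -7.70, HKDC1 at -7.51, EPGN at -6.49, LRRC15 at -6.46 and NUDT16 at -6.38. Where a gene had 0 or very few counts in a group, the fitted size depends on the prior count and is no bound. Without CEM prednisolone replicate 1 the difference of LRRC15 was -4.51 and no longer passed the test. PHACTR3, a phosphatase regulator, was at 79.8 CPM untreated and 86.1 CPM treated in Nalm6, not called, and rose by 7.56 on the log2 scale in CEM.

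Unmapped reads, which no comparison used, made up 9.40%, 6.11% and 6.73% of the prednisolone libraries and 5.56%, 5.00% and 5.50% of the untreated ones. Reads outside genes made up 26.3% to 32.7% and 26.4% to 28.3%, which overlap. The part of these shares in the gene results was not tested.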

How the results depend on the processing

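Over the genes named, 2874 recomputed values were counted as unchanged, 12 newly passed the threshold, 1 (LRRC15) no longer passed and 1 (GZMA) reversed. A reversal was counted only for genes called in the main fit. For genes not called there, a change of sign was counted as unchanged. Values without an adjusted p were also counted as unchanged where the sign held. Of the 10231 calls, 8107 (79.2%) held in the same direction without any 1 of the 6 libraries, and the number called ranged from 9243 to 10133 over those fits. With DESeq2, 8607 were called in the same direction. The number of genes changed by 1 or more on the log2 scale, 1638, became 1001 with at least 10 counts in every library, which tests fewer genes, and 2599 against the second untreated Nalm6 group; the cause of the latter was not tested. Against that group GZMA reversed, from 1.13 to -1.95. The share of promoter windows of genes called higher by at least 1 with a match was 0% for the full letters, 1.74% for the core letters and 13.1% for the hexamer alone.

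For prednisolone against dexamethasone, leaving out 1 library gave 1237 to 2052 genes, 382 to 1282 of them higher and 584 to 1239 lower. Without a filter 469 were higher and 1414 lower. By a log2 difference of 1 or more there were 176 genes, 92 with DESeq2 and 107 with at least 10 counts in every library. For Nalm6 against CEM, 992 such genes became 526 with that minimum.

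With the replicate number as a block, 10581 genes were called. Same-numbered untreated and treated libraries had correlated deviations of 0.07, 0.21 and 0.16, against -0.15 to -0.01 for differently numbered ones. Every library correlated best with its own number, but 1 pair was under 0.1, so the numbers were not used for pairing. At the depth of the shallowest library, replicate 1 under prednisolone, 0 counts allow up to 0.102 CPM, and genes near that level cannot be ranked.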

Other observations

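Ion transport genes held some of the sharpest single changes. Of 33 potassium and sodium channel genes tested, 10 were higher and 10 lower (30.3% each), near the 28.7% and 26.1% over all genes tested. KCNK3, a leak potassium channel, rose from 1.07, 1.08 and 1.03 to 18.2, 22.5 and 24.4 CPM, and KCNJ2, an inward rectifier, fell from 22.2, 18.4 and 19.7 to 4.58, 4.8 and 5.17 CPM. SCN4A, the muscle sodium channel, fell from 6.3, 5.26 and 5.52 to 0.679, 0.892 and 0.58 CPM (-3.02 ± 0.15, SE). The groups did not overlap for any of the 3, as they did not for 60.9% of all genes tested. Genes named for the largest changes of a list were picked on that condition. Calcium genes gave 12 higher and 11 lower of 25 (48% and 44%). The calmodulin kinase CAMK2D rose from 0.226 ± 0.145 to 3.91 ± 0.469 CPM, the calpain CAPN5 by 3.05 and the store sensor STIM1 by 1.15 on the log2 scale.

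Among 219 solute carriers 70 were higher and 80 lower (32.0% and 36.5%, against 28.7% and 26.1% over all genes tested). SLC9A9, an endosomal proton exchanger, rose from 7.96 ± 0.284 to 36.4 ± 2.03 CPM, and SLC1A3, a glutamate transporter, fell from 8.82 ± 0.575 to 2.45 ± 0.25 CPM. The drug efflux gene ABCG2 fell from 12.5 ± 0.668 to 3.86 ± 0.387 CPM, and ABCA1, a cholesterol exporter, rose from 51.4 ± 1.16 to 117 ± 2.67 CPM. In the adhesion group S1PR2, a sphingosine phosphate receptor, fell from 3.25 ± 0.208 to 1.35 ± 0.112 CPM and CXCR4, the bone marrow homing receptor, rose from 437 ± 10.8 to 697 ± 29.6 CPM. CNTN2, an adhesion molecule of the nervous system, was among the 12 largest falls of genes at an average log2 CPM of at least 1 whose groups did not overlap, from 41.8, 42.5 and 44.9 to 8.38, 8.58 and 7.52 CPM (-2.44 ± 0.06).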
